A study of Sus scrofa with 64 samples.

Results

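The 10 genes described here encode carriers that take peptides and amino acids across the plasma membrane of absorptive cells: SLC15A1, SLC6A19, SLC6A20, SLC7A9, SLC3A1, SLC1A1, SLC36A1, SLC7A7, SLC7A8 and SLC38A2. They were chosen by name as known intestinal carriers. All 10 of the 10 listed genes were measured and passed the filter on low counts, among 14062 genes tested and 31908 gene IDs counted. RNA was sequenced from scraped mucosa of the mid-jejunum, the middle of the small intestine, of 64 female Large White x Norwegian Landrace piglets, with 16 pigs in each of 4 groups. Fed piglets of 4 weeks stayed with the sow on the farm of birth on milk, without creep feed. Fasted piglets of 4 weeks were kept in a pen of their own on that farm for 48 h, so fasting and removal from the sow cannot be told apart. Piglets of 6 weeks had moved to a research site at 4 weeks, lived in pairs and ate a weaning diet for 2 weeks. The fed ones went on eating, and the fasted ones had their feed withheld for the last 48 h. Water was always at hand for all groups. Between 4 and 6 weeks, age, weaning, diet and housing changed together and cannot be told apart.

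Protein digested in the gut lumen reaches the enterocyte, the absorptive cell of the villus, as free amino acids and short peptides. Apical carriers on the brush border draw them in on gradients of protons or sodium, and basolateral exchangers pass amino acids on to the blood. Several carriers work only as heterodimers: SLC7A9 needs SLC3A1, while SLC7A7 and SLC7A8 need SLC3A2.

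Library totals ran from 18774144 to 21159989 counts. Levels are given as CPM, counts brought to a common library size after scaling by the trimmed mean of M values (TMM), and ± gives the SD over 16 pigs. CPM is not corrected for transcript length, so levels are compared between groups for a gene and not between genes. Changes are log2 fold changes with their standard error (SE) from edgeR's quasi-likelihood test, with p values adjusted by the Benjamini-Hochberg method over all 14062 genes, and genes were called at an adjusted p under 0.05. In scraped tissue, fewer cells of a type and less RNA per cell cannot be told apart. The 11 tested markers of absorptive enterocytes had mean log2 CPM of 10.2 ± 0.20 in fed and 10.2 ± 0.57 in fasted 4-week piglets, and of 10.8 ± 0.27 and 10.8 ± 0.30 in fed and fasted 6-week piglets. Fasted 4-week pig 1 was lowest of its group in that level, at 8.66 against 9.73 for the next pig, and lowest for 7 of the 10 transporters. Pig 28 was highest in the marker level of the same group, at 11.2, and highest for 5 of the 10. Smooth muscle markers fell with fasting at 4 weeks by 2.08 on the log2 scale (9 of 9 markers called lower; permutation test, adjusted p = 3.7e-05). Crypt markers rose there by 1.82 (9 of 9 called higher, permutation test, adjusted p = 1.26e-04). Over all tested genes 29.4% were called lower and 33.9% higher in that comparison. T cell, plasma cell and macrophage markers rose there by 0.73, 0.784 and 0.993 (permutation test, adjusted p from 3.67e-05 to 0.0016). Blood endothelium markers changed by -0.842 (permutation test, adjusted p = 0.00346). At 6 weeks goblet, plasma cell, T cell and enteroendocrine markers changed with fasting by -0.517, -0.461, 0.341 and 0.188 (permutation test, adjusted p from 0.00335 to 0.0356). Fasting also lowered smooth muscle markers at 6 weeks by 0.95 and fibroblast markers at both ages by 1.51 and 0.91 (permutation test, adjusted p from 1.26e-04 to 0.0013). In fed piglets of 6 against 4 weeks crypt, goblet and T cell markers were higher by 1.71, 1.24 and 1.56 (permutation test, adjusted p = 3.7e-05 for each). Plasma cell and macrophage markers were higher there by 1.609 and 0.725 (permutation test, adjusted p = 3.67e-05 for both). Enteroendocrine, smooth muscle and blood endothelium markers changed by -1.113, -0.667 and -0.413 (permutation test, adjusted p = 3.67e-05, 0.00335 and 0.0201). In fasted piglets of 6 against 4 weeks, T cell, goblet and absorptive enterocyte markers were higher by 1.168, 0.739 and 0.615. Enteroendocrine, B cell and macrophage markers changed there by -0.739, -0.803 and -0.495 (permutation test, adjusted p from 3.67e-05 to 0.0201 for these 6 lists). The part of crypt, goblet, fibroblast, T cell, plasma cell, macrophage, enteroendocrine and endothelial shares in the transporter changes was not tested.

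After 48 h without milk at 4 weeks, SLC3A1, SLC1A1 and SLC7A7 rose, SLC36A1 and SLC6A19 fell, and the other 5 were not called. This was 5 of 10, where 63.4% of all tested genes were called, with 33.9% higher and 29.4% lower. The members' median log2 change was 0.17, against 0.03 over all tested genes. At 6 weeks the same time without feed raised SLC7A8 and SLC7A7 and lowered SLC38A2, which is 3 of 10 beside 41.1% of all genes (22.7% higher, 18.4% lower). The members' median there was 0.05, against 0.01 over all genes. The difference between the fasting effects of both ages, tested as an interaction, was called for 6 of 10 transporters, beside 53.7% of all genes, with 3 positive (27.1% of all genes) and 3 negative (26.6%). In fed piglets of 6 against 4 weeks, 4 transporters were higher and 1 lower, beside 64.2% of all genes called (31.9% higher, 32.3% lower). With the enterocyte marker level as a covariate that count was 4 higher and 5 lower. In fasted piglets of 6 against 4 weeks, 5 were higher and 2 lower, beside 42.9% called (19.7% higher, 23.2% lower). The members' medians in those comparisons were 0.21 and 0.36, against -0.01 over all genes in both. These comparisons share pigs: each group enters more than 1 of them.

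**Figure D1:**
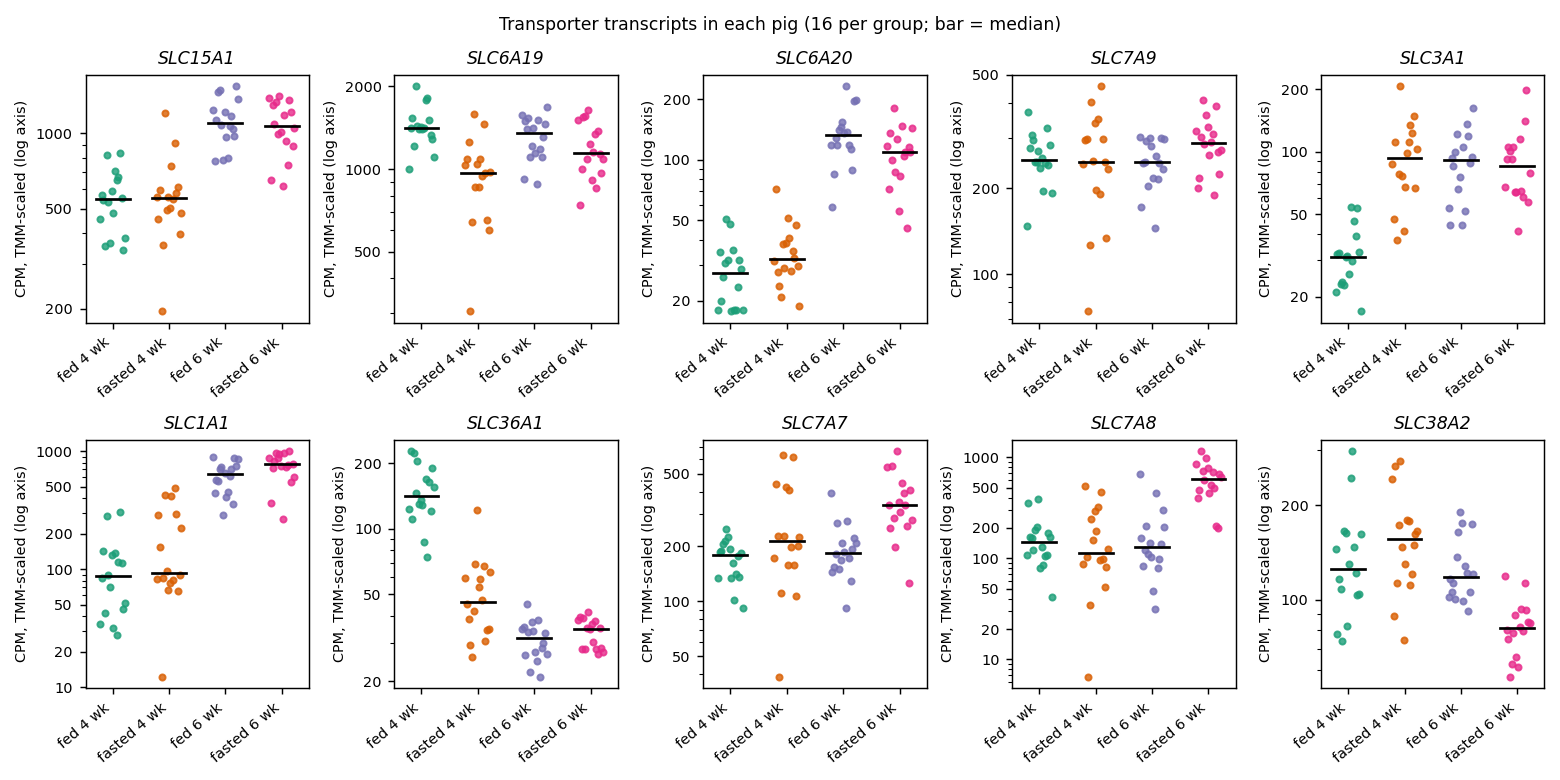
Level of each transporter in every pig (CPM on a log axis, 1 panel per gene), with 16 pigs per group and a bar at the median. SLC36A1 stood highest in fed 4-week piglets, SLC3A1 lowest there, SLC6A20 and SLC1A1 higher at 6 weeks, and SLC7A8 highest in fasted 6-week piglets.

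**Figure D2:**
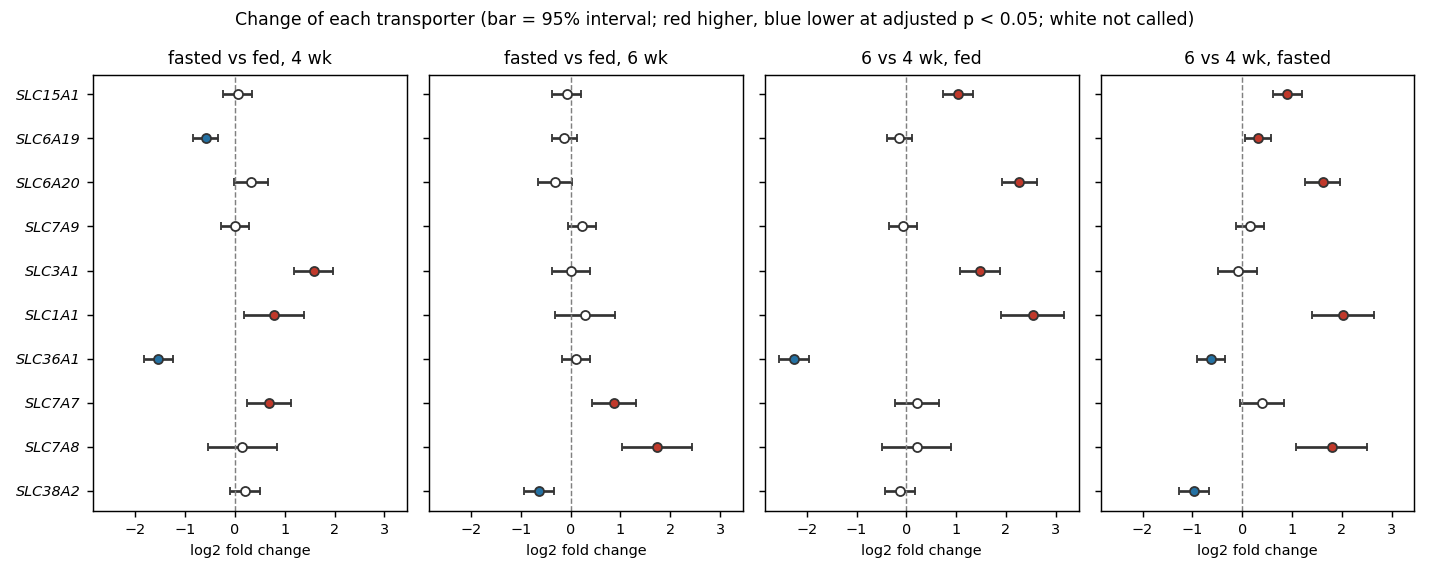
Log2 fold change of each transporter in 4 comparisons, with 95% intervals from the standard error. Filled points passed an adjusted p of 0.05 (red higher, blue lower in the group named first) and white points did not.

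SLC15A1 encodes the proton-coupled carrier of short peptides (PEPT1) on the brush border, and lies on chromosome 11 from 67652808 to 67690457 of Sscrofa11.1. Its level in fed 4-week piglets had a lowest, median and highest value of 342, 549 and 838 CPM, and in fasted 4-week piglets of 195, 553 and 1206. Fed 6-week piglets ranged over 774, 1104 and 1547 CPM, and fasted 6-week piglets over 617, 1072 and 1415. The ranges of the ages overlapped, yet 13 of the 16 fed 6-week pigs lay above every fed 4-week pig. SLC15A1 was higher at 6 than at 4 weeks in fed piglets (log2 change 1.03, SE 0.15, edgeR adjusted p = 1.86e-08) and in fasted piglets (0.90, SE 0.15, adjusted p = 1.49e-06). Fasting was not called at either age: the change was 0.05 with a 95% interval of -0.24 to 0.35 at 4 weeks, and -0.08 with an interval of -0.37 to 0.21 at 6 weeks. The absorptive enterocyte markers were also higher at 6 weeks, by 0.56 in fed piglets (permutation test, adjusted p = 3.7e-05). With their level in each pig as a covariate the age change of SLC15A1 was 0.52 in fed and 0.39 in fasted piglets, both still called. That marker list moved in both directions: in fed piglets 7 of its 11 genes were higher and 3 lower at 6 weeks. Over all genes 31.9% were higher and 32.3% lower. The list's median was 0.42, with a range from -1.46 for FABP2, a fatty acid binding protein, to 4.10 for MGAM, a maltase of the brush border. The structural brush border genes, used as another covariate, were VIL1, CDHR2, CDHR5, MYO1A, PLS1 and KRT20. All of them are also in that marker list, so the covariates are not independent. Their mean log2 CPM was 10.375 ± 0.119 in fed 4-week and 10.643 ± 0.161 in fed 6-week piglets.

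SLC6A19 encodes the sodium-driven carrier of neutral amino acids on the brush border, and lies on chromosome 16 from 79293940 to 79310922. Fed 4-week piglets had a lowest, median and highest level of 997, 1410 and 2011 CPM, and fasted 4-week piglets of 303, 972 and 1587. In 14 of 16 fasted pigs the level was below the fed median, and the fall was 0.59 on the log2 scale (SE 0.13, edgeR adjusted p = 7.49e-05), or 1.5-fold. At 6 weeks the fed range was 885, 1354 and 1677 CPM and the fasted range 738, 1144 and 1646, which nearly coincided. The change there, -0.13 (SE 0.13, adjusted p = 0.439), was not called, but it was called with smooth muscle and B cell markers as covariates (-0.35, adjusted p = 0.0285) or with the enterocyte marker level as one (-0.22, adjusted p = 0.0118). The fasting effects differed between ages by 0.46 (SE 0.18, adjusted p = 0.0289). With libraries scaled by size alone that difference was 0.25 and not called (adjusted p = 0.11). Between fed groups of both ages SLC6A19 was not called (-0.14, SE 0.13, adjusted p = 0.339). That change was 0.07 with scaling by library size alone. It was called lower with the enterocyte marker level (-0.65, adjusted p = 4.26e-10) or the structural brush border genes (-0.48, adjusted p = 4.48e-08) as a covariate. In fasted piglets it was higher at 6 weeks by 0.32 (SE 0.13, adjusted p = 0.0401). Without fasted 4-week pig 1 that last value was 0.27 with an adjusted p of 0.0557, and with the enterocyte marker level as a covariate it was -0.18.

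SLC6A20 encodes the sodium-driven carrier of proline and related imino acids, on chromosome 13 from 28897831 to 28945191. Fed 4-week piglets ran from 17.7 over a median of 27.5 to 50.7 CPM, and fasted 4-week piglets from 18.7 over 32.1 to 72.1. Fed 6-week piglets ran from 58.1 over 133 to 233 CPM, and fasted 6-week piglets from 46.0 over 110 to 181. Every fed 6-week pig was above every fed 4-week pig, a separation found upwards in 2.78% of all tested genes. The rise with age in fed piglets was 2.26 on the log2 scale (SE 0.18, edgeR adjusted p = 4.26e-17), or 4.8-fold. In fasted piglets it was 1.62 (SE 0.18, adjusted p = 4.16e-11). Fasting was not called at either age, with 0.33 (SE 0.17, adjusted p = 0.0943) at 4 weeks and -0.32 (SE 0.17, adjusted p = 0.129) at 6 weeks. The difference between those effects was -0.65 (SE 0.24, adjusted p = 0.0215), a call lost under limma-voom (-0.49, adjusted p = 0.0763) and with smooth muscle and B cell covariates (-0.59, adjusted p = 0.0667). Scaling by library size alone gave a 4-week change of 0.52 that was called (adjusted p = 0.00698). SACM1L overlaps SLC6A20 in the annotation, and with no strand setting in the sources their shared reads could not be assigned. SACM1L itself changed by -0.22 in fed piglets of 6 against 4 weeks, and its part in the SLC6A20 counts was not tested.

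SLC7A9 and SLC3A1 encode the light and heavy chains of the apical exchanger for cystine and basic amino acids. SLC7A9 lies on chromosome 6 from 42664795 to 42706113, and SLC3A1 on chromosome 3 from 96157387 to 96201057. SLC7A9 had medians of 252 CPM (fed) and 248 CPM (fasted) at 4 weeks, and of 247 CPM (fed) and 289 CPM (fasted) at 6 weeks. The ranges of SLC7A9 overlapped throughout, with a lowest value of 74.3 in fasted 4-week pig 1 and a highest of 458 CPM in the same group. No comparison called SLC7A9 in edgeR's test, with changes from -0.07 to 0.23 on the log2 scale and adjusted p from 0.207 to 0.986. With a covariate some did: in fed piglets of 6 against 4 weeks the change was -0.54 with the enterocyte marker level and -0.39 with structural brush border genes. With smooth muscle and B cell markers as covariates the 4-week fasting change was -0.45 (adjusted p = 0.0467). With structural brush border genes the 6-week fasting change was 0.30 (adjusted p = 0.0127) and the difference between ages 0.46 (adjusted p = 0.00531).

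The lowest, median and highest levels of SLC3A1 were 17.0, 31.2 and 54.4 CPM in fed 4-week piglets. With fasting at that age they were 37.4, 93.2 and 208 CPM. At 6 weeks they were 44.4, 90.9 and 162 CPM with feed and 41.5, 85.3 and 198 CPM without. The fed 4-week group stood low, and the other 3 groups covered much the same range. SLC3A1 rose with fasting at 4 weeks by 1.58 (SE 0.20, edgeR adjusted p = 7.87e-10), with 16 of 16 fasted pigs above the fed median. It was also higher in fed piglets of 6 than of 4 weeks, by 1.48 (SE 0.20, adjusted p = 4.05e-09). At 6 weeks the fasting change was 0.01, with a 95% interval of -0.38 to 0.39, and the difference between ages was -1.57 (SE 0.28, adjusted p = 3.53e-06). PREPL overlaps SLC3A1, and its change with fasting at 4 weeks was -0.06 (edgeR adjusted p = 0.381). The part of PREPL in the SLC3A1 counts was not tested.

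Within each pig, the log2 ratio of SLC7A9 to SLC3A1 (each as CPM plus 1) was 3.01 ± 0.47 in fed 4-week piglets. The fasted group of that age had 1.43 ± 0.66, and at 6 weeks the fed and fasted groups had 1.52 ± 0.63 and 1.74 ± 0.60. Only the change of a ratio between groups can be read, since the transcripts differ in length. The ratio fell by 1.58 with fasting at 4 weeks (permutation test with 100000 resamples, two-sided, adjusted over 20 ratio tests, adjusted p = 2.86e-05, from the smallest p the resamples can give, 1e-05). All 16 fasted pigs lay below the fed median. At 6 weeks the ratio differed by 0.22 (permutation test, adjusted p = 0.378). Across the 16 pigs of a group, log2 levels of both chains had a Pearson r of 0.32 (fed) and 0.52 (fasted) at 4 weeks, and of 0.03 (fed) and 0.16 (fasted) at 6 weeks. Spearman's rho was 0.32, 0.48, -0.16 and 0.13 in the same order. None passed a permutation test adjusted over 20 correlations, with Pearson adjusted p of 0.301, 0.0565, 0.921 and 0.59.

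SLC1A1 encodes the sodium-driven carrier of glutamate and aspartate, and lies on chromosome 1 from 217366493 to 217441643. Fed 4-week piglets ran from 27.9 over a median of 87.3 to 302 CPM, and fasted 4-week piglets from 12.3 over 93.2 to 485. Fed 6-week piglets ran from 285 over 636 to 889 CPM, and fasted 6-week piglets from 265 over 774 to 1000. The 4-week groups had like medians and a wide spread, and the 6-week groups stood high with little overlap. The rise with age was 2.53 in fed (SE 0.33, edgeR adjusted p = 7.54e-10) and 2.03 in fasted piglets (SE 0.32, adjusted p = 5.13e-07). With the enterocyte marker level as a covariate these were 1.64 and 1.20, both called. Fasting at 4 weeks gave a fitted change of 0.79 (SE 0.31, adjusted p = 0.023), although only 9 of 16 fasted pigs lay above the fed median. That call was lost without fasted pigs 1, 28 and 32 (0.55, adjusted p = 0.0881), in a fit of both groups alone (0.79, adjusted p = 0.0827), without the filter on low counts (0.75, adjusted p = 0.0515), and with smooth muscle and B cell markers (0.75, adjusted p = 0.145) or brush border genes (0.40, adjusted p = 0.114) as covariates. Fasting at 6 weeks was not called (0.28, SE 0.31, adjusted p = 0.478).

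SLC36A1 encodes a proton-coupled carrier of small neutral amino acids that is found on the brush border and on lysosomes. It lies on chromosome 16 from 71540646 to 71589532. Fed 4-week piglets ran from 74.1 over a median of 141 to 227 CPM. Fasted 4-week piglets ran from 25.8 over 46.2 to 122 CPM, where the highest was pig 16. Fed 6-week piglets ran from 21.0 over 31.6 to 45.1 CPM, and fasted 6-week piglets from 26.7 over 34.8 to 41.4. Each fed 4-week pig was above each fed 6-week pig, a separation found downwards with age in 5.1% of all tested genes. The fall with fasting at 4 weeks was 1.54 on the log2 scale (SE 0.15, edgeR adjusted p = 4.89e-14), or 2.91-fold, with 16 of 16 fasted pigs below the fed median. The change between fed groups with age was -2.26 (SE 0.15, adjusted p = 2.34e-20), and between fasted groups -0.62 (SE 0.15, adjusted p = 3.81e-04). At 6 weeks fasting gave 0.10, with a 95% interval of -0.18 to 0.38, and the fasting effects of the ages differed by 1.64 (SE 0.21, adjusted p = 8.82e-10).

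SLC7A7 and SLC7A8 encode basolateral exchangers, for basic amino acids and for large and small neutral ones. They lie on chromosome 7, SLC7A8 from 75854700 to 75921931 and SLC7A7 from 76195774 to 76235406, with 273842 bases and 17 annotated genes between them. The levels of SLC7A7 ran from 91.9 over a median of 181 to 248 CPM in fed 4-week and from 38.7 over 213 to 635 in fasted 4-week piglets. At 6 weeks they ran from 91.9 over 185 to 393 CPM in fed and from 127 over 337 to 666 in fasted piglets. The fasted pigs reached higher, with 10 of 16 pigs above the fed median at 4 weeks and 15 of 16 at 6 weeks. The rise with fasting was 0.68 at 4 weeks (SE 0.23, edgeR adjusted p = 0.00736) and 0.87 at 6 weeks (SE 0.23, adjusted p = 0.0016). The difference between ages was 0.19, with a 95% interval of -0.43 to 0.81. The 4-week call was lost under limma-voom with sample weights (0.37, adjusted p = 0.08) and with smooth muscle and B cell covariates (0.34, adjusted p = 0.345). SLC7A7 was not called with age in fed piglets (0.21, adjusted p = 0.414) or in fasted ones (0.40, adjusted p = 0.145). With the enterocyte marker level as a covariate both turned, to -0.59 in fed piglets (adjusted p = 0.00518) and -0.27 in fasted ones, and with the structural brush border genes the change in fed piglets was -0.25. In fasted piglets the age change became a call without fasted 4-week pigs 1, 28 and 32 (0.61, adjusted p = 0.0104) and under limma-voom (0.62, adjusted p = 0.00747). OXA1L overlaps SLC7A7 and rose with fasting by 0.22 at 4 weeks and 0.42 at 6 weeks; its part in the SLC7A7 counts was not tested.

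SLC7A8 was called with fasting at 6 weeks. Its lowest, median and highest levels were 41.2, 145 and 387 CPM in fed 4-week and 6.76, 113 and 519 in fasted 4-week piglets. At 6 weeks they were 31.6, 130 and 692 CPM with feed and 199, 617 and 1152 CPM without. All 16 fasted 6-week pigs were above the fed 6-week median. The ranges overlapped, with 11 of 16 fed pigs below every fasted pig and fed pig 46 reaching 692 CPM. The rise at 6 weeks was 1.74 (SE 0.36, edgeR adjusted p = 9.42e-05), or 3.34-fold. At 4 weeks the change was 0.15, with a 95% interval of -0.54 to 0.84, and the ages differed by 1.59 (SE 0.50, adjusted p = 0.00574). Fasted 6-week piglets also exceeded fasted 4-week piglets by 1.79 (SE 0.36, adjusted p = 4.59e-05). With the enterocyte marker level as a covariate that age change was 0.77 and not called (adjusted p = 0.0589), and the one in fed piglets turned from 0.20 to -1.17 (adjusted p = 0.00346). The log2 ratio of SLC7A7 to SLC7A8 rose by 0.64 with fasting at 4 weeks (permutation test, adjusted p = 0.00831) and fell by 1.18 at 6 weeks (permutation test, adjusted p = 6e-05).

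**Figure D3:**
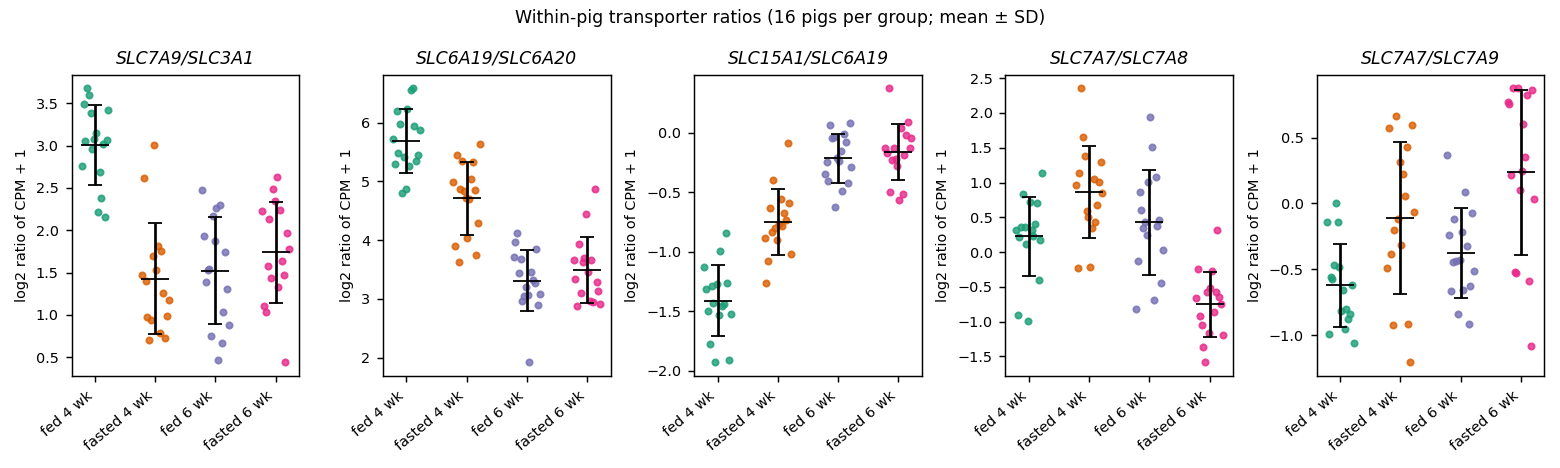
Log2 ratio of CPM plus 1 for 5 pairs of transporters in each pig, with the mean and SD of 16 pigs per group. The ratio of SLC7A9 to SLC3A1 was highest in fed 4-week piglets, the ratio of SLC15A1 to SLC6A19 rose from -1.41 there to -0.16 in fasted 6-week piglets, and the ratio of SLC7A7 to SLC7A8 was lowest in fasted 6-week piglets.

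SLC38A2 encodes a sodium-driven carrier of small neutral amino acids whose transcript rises in cultured cells that lack amino acids, and lies on chromosome 5 from 77113491 to 77127715. Its lowest, median and highest levels were 74.3, 126 and 298 CPM in fed 4-week and 74.4, 156 and 277 in fasted 4-week piglets. They were 92.0, 118 and 191 CPM in fed 6-week and 57.0, 81.3 and 119 in fasted 6-week piglets. The fasted 6-week group stood lowest, with 15 of 16 pigs below the fed median. The fall with fasting at 6 weeks was 0.64 (SE 0.16, edgeR adjusted p = 8.41e-04). At 4 weeks the change was 0.20 (SE 0.16, adjusted p = 0.261), which passed the test under limma-voom (0.34, adjusted p = 0.0406) and with scaling by library size alone (0.41, adjusted p = 0.00944). The ages differed by -0.84 (SE 0.22, adjusted p = 0.00105). In fasted piglets SLC38A2 was lower at 6 than at 4 weeks, with a change of -0.97 (SE 0.16, adjusted p = 9.03e-07), and in fed piglets it was not called (-0.13, adjusted p = 0.46).

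Ratios of brush border carriers, formed within each pig, also differed between groups. The log2 ratio of SLC15A1 to SLC6A19 was -1.41 ± 0.30 (fed) and -0.75 ± 0.28 (fasted) at 4 weeks, and -0.22 ± 0.21 (fed) and -0.16 ± 0.24 (fasted) at 6 weeks. All 16 fasted pigs at 4 weeks lay above the fed median (difference 0.66, permutation test, adjusted p = 2.86e-05), while at 6 weeks the difference was 0.05 (permutation test, adjusted p = 0.513). In fed piglets of both ages the ranges of this ratio did not overlap, and the difference was 1.20 (permutation test, adjusted p = 2.86e-05). The log2 ratio of SLC6A19 to SLC6A20 was 5.69 ± 0.54 (fed) and 4.71 ± 0.62 (fasted) at 4 weeks, a fall of 0.98 (permutation test, adjusted p = 6e-05). At 6 weeks the fed group had 3.31 ± 0.53 and the fasted group 3.49 ± 0.56, which differed by 0.18 (permutation test, adjusted p = 0.401). Its ranges in fed piglets of both ages did not overlap either. The log2 ratio of the basolateral SLC7A7 to the apical SLC7A9 was higher in fasted piglets at both ages, by 0.51 at 4 weeks (permutation test, adjusted p = 0.00747) and 0.61 at 6 weeks (permutation test, adjusted p = 0.00405).

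Levels of some pairs moved together among the 16 pigs of a group. For SLC15A1 and SLC6A19 Pearson's r was 0.69 (fed) and 0.88 (fasted) at 4 weeks, and 0.77 (fed) and 0.79 (fasted) at 6 weeks. Spearman's rho was 0.78, 0.70, 0.71 and 0.78, and all 8 coefficients passed a permutation test, with adjusted p from 1.5e-04 to 0.00685. Without the 2 pigs farthest from the median of SLC15A1, r was 0.68, 0.70, 0.75 and 0.68. SLC7A7 and its heavy chain SLC3A2 had r of 0.91 (fasted, 4 weeks), 0.86 (fed, 6 weeks) and 0.76 (fasted, 6 weeks) (rho 0.85, 0.80 and 0.78; permutation adjusted p from 1.5e-04 to 0.00192; without 2 pigs 0.85, 0.74 and 0.68). In fed 4-week piglets that r was 0.34 (rho 0.02, permutation adjusted p = 0.296) and turned to -0.12 without 2 pigs. SLC38A2 and the asparagine synthetase gene ASNS had r of 0.72 in fasted 4-week piglets (rho 0.60, permutation adjusted p = 0.00318, 0.69 without 2 pigs). In the other 3 groups (fed at 4 weeks, fed at 6, fasted at 6) it was 0.24, -0.17 and 0.16 (rho 0.15, -0.22 and 0.11; permutation adjusted p = 0.458, 0.59 and 0.59). Pigs 1 and 28, the extremes of the enterocyte marker level, were both among the pairs left out in fasted 4-week piglets for SLC15A1 and SLC7A7. The part of the share of enterocytes in these correlations was not tested.

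**Figure D4:**
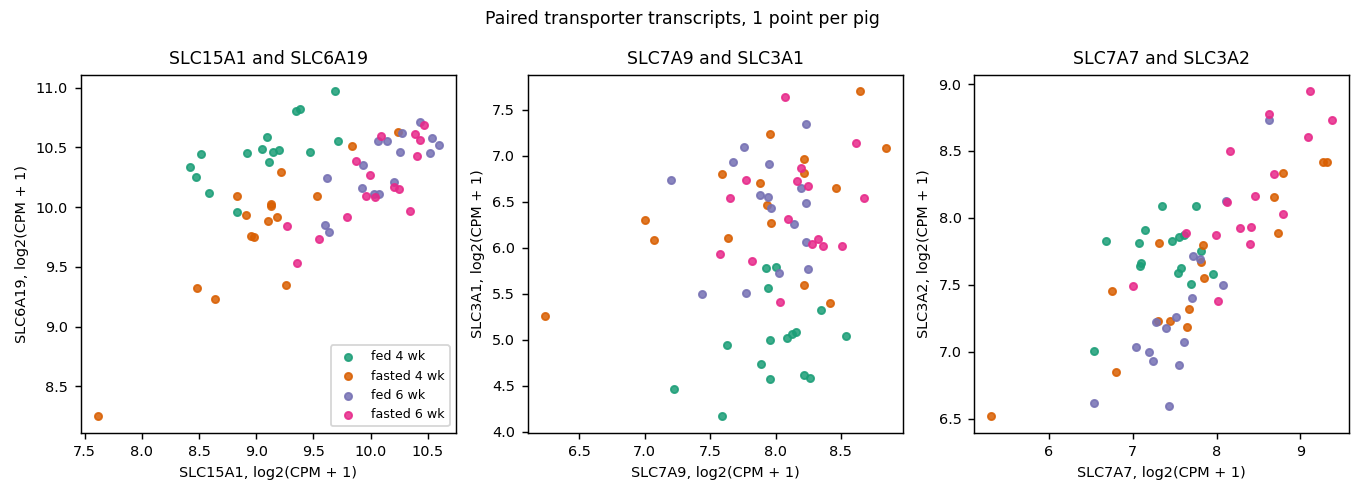
Log2(CPM + 1) of 3 transporter pairs, 1 point per pig, coloured by group. SLC15A1 and SLC6A19 rose together within each group, and SLC7A9 and SLC3A1 did so little. Most fed 4-week piglets lay below the other groups in SLC3A1, with some overlap.

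The genes whose levels were most like each transporter's were found by Pearson r over 64 pigs after group means were taken off log2 CPM, among 10141 genes. Among the nearest to SLC15A1 was SLC6A19 (r = 0.81). SLC6A19 was nearest to F8 (0.91) and PLEKHG6 (0.90), and SLC7A9 to HAPLN4 (0.85) and CASTOR2 (0.84). Among the nearest to SLC7A7 was SLC28A1 (0.88), a nucleoside carrier. SLC7A8 was nearest to RGN (0.89) and PCBP4 (0.88). Among the nearest to SLC1A1 was ATP1B1 (0.83), the beta chain of the sodium pump that maintains the gradient it uses. SLC38A2 was nearest to DDX3X (0.85) and MEX3C (0.81), and SLC36A1 to USP11 (0.71) and PEX5 (0.71). The 2 with the loosest neighbours were SLC3A1, with TUBB4A (0.66) and FAM162A (0.65), and SLC6A20, with AQP8 (0.62) and ALDH2 (0.61). Within single groups r ranged from 0.04 to 0.86 for SLC3A1 with TUBB4A, and from 0.05 to 0.77 for SLC6A20 with ALDH2.

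Of 11 tested genes for partner proteins and ion pumps, 2 rose and 2 fell with fasting at 4 weeks, 1 rose and 2 fell at 6 weeks, and in fed piglets 7 were higher and 1 lower at 6 weeks. Over all genes 63.4%, 41.1% and 64.2% were called in these comparisons. SLC3A2, the heavy chain of SLC7A7 and SLC7A8, had 214 ± 35.2 CPM in fed and 209 ± 78.9 in fasted 4-week piglets, and 171 ± 82.1 and 298 ± 96.7 in fed and fasted 6-week piglets. It rose with fasting at 6 weeks by 0.80 (SE 0.17, edgeR adjusted p = 1.06e-04; 16 of 16 pigs above the fed median), and at 4 weeks the change was -0.04 (adjusted p = 0.864). CLTRN, which pairs with SLC6A19 in the kidney, was higher in fed piglets of 6 weeks by 1.21 (adjusted p = 2.21e-05). ANPEP, the aminopeptidase N of the brush border, was higher there by 0.46 (adjusted p = 0.0101). ATP1B1 rose with age in fed piglets by 1.61 (adjusted p = 7.67e-15) and with fasting at 4 weeks by 0.53 (adjusted p = 9.84e-04). SLC9A3, the apical sodium-proton exchanger that sustains proton-coupled uptake, fell with fasting at 4 weeks (adjusted p = 4.6e-15), from 1022 ± 189 to 362 ± 123 CPM. In fed piglets it was lower at 6 weeks, with a change of -2.26 (adjusted p = 4.71e-22), at 214 ± 50.8 CPM.

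Among 17 tested of 23 listed other peptide and amino acid carriers of the plasma membrane, 11 rose and 2 fell with fasting at 4 weeks, with a median log2 change of 1.13, beside 33.9% of all genes higher and 29.4% lower. At 6 weeks 2 rose and 6 fell, with a median of -0.26, beside 22.7% higher and 18.4% lower. The medians over all genes were 0.03 and 0.01. The difference between ages was negative and called for 10 and positive for 2, beside 26.6% and 27.1% of all genes. SLC7A5, a carrier of large neutral amino acids, had 11.3 ± 3.48 CPM in fed and 36.8 ± 23.9 in fasted 4-week piglets, and 35.0 ± 15.1 and 17.6 ± 8.04 in fed and fasted 6-week piglets. It rose by 1.70 at 4 weeks (SE 0.25, edgeR adjusted p = 3.51e-08) and fell by 0.99 at 6 weeks (SE 0.25, adjusted p = 9.26e-04). The glutamine carrier SLC1A5 moved likewise, by 1.13 (adjusted p = 3.29e-06) and -0.71 (adjusted p = 0.00377). SLC6A14, a broad carrier of neutral and basic amino acids, stayed under 1 CPM on average in each group and rose at 4 weeks by 1.76 (adjusted p = 1.72e-05), with -0.51 at 6 weeks (adjusted p = 0.166). SLC38A5 and SLC6A9, carriers of glutamine and of glycine, rose at 4 weeks by 1.85 and 1.75 (adjusted p = 2.2e-13 and 9.91e-10). The largest fall at 4 weeks in this list was that of SLC6A18, by 3.77 (edgeR adjusted p = 1.88e-13). It went from 1.93 ± 0.89 to 0.14 ± 0.09 CPM. SLC7A2, SLC7A11 and SLC38A4 also stayed under 1 CPM on average in each group, as did SLC6A18 in both fasted groups. The changes of such genes enter the counts and median of this list and rest on few reads.

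A pair in this list rose with fasting at both ages. SLC16A10, a carrier of aromatic amino acids, had 6.11 ± 2.93 and 12.9 ± 7.39 CPM in fed and fasted 4-week piglets, and 13.8 ± 4.79 and 34.0 ± 12.7 at 6 weeks. Its rises were 1.07 (edgeR adjusted p = 5.24e-05) and 1.303 (adjusted p = 5.31e-06), and their difference was 0.23 (adjusted p = 0.567). SLC6A6, the taurine carrier, rose by 1.31 at 4 weeks (adjusted p = 5.18e-09) and by 0.62 at 6 weeks (adjusted p = 0.00385) and was higher at 6 weeks in fed piglets by 1.92 (adjusted p = 4.33e-14). In fed piglets of 6 against 4 weeks 12 of the 17 carriers were higher and 2 lower, beside 31.9% and 32.3% of all genes. In fasted piglets 6 were higher and 5 lower, beside 19.7% and 23.2%.

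**Figure D5:**
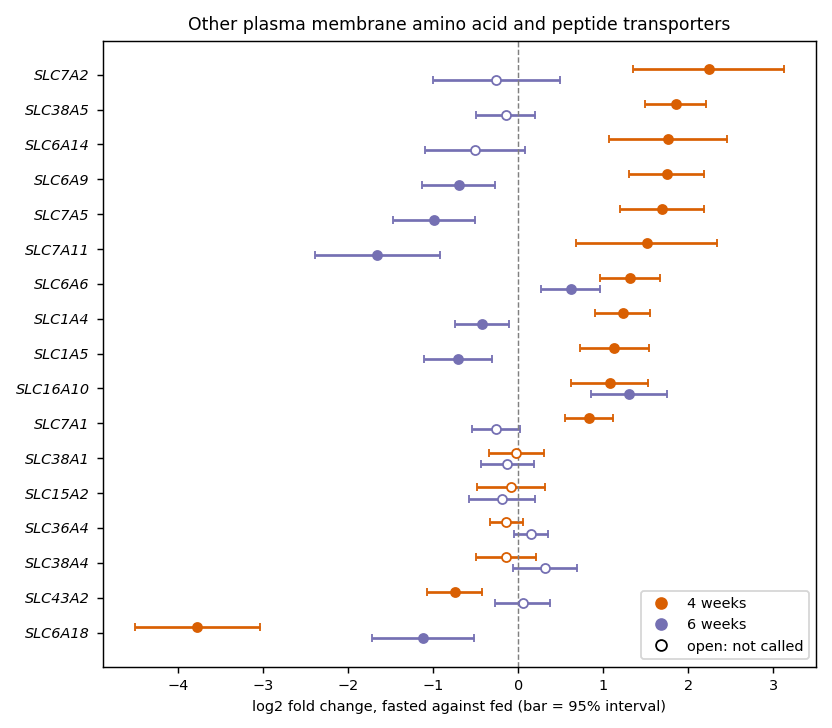
Log2 fold change of 17 other plasma membrane carriers in fasted against fed piglets at 4 weeks (orange) and 6 weeks (purple), with 95% intervals; open points did not pass an adjusted p of 0.05. At 4 weeks 11 rose and 2 fell, and at 6 weeks 2 rose and 6 fell.

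Carriers of the lysosome release amino acids from degraded protein. Of 9 tested, 2 rose and 6 fell with fasting at 4 weeks (median -0.39), 3 rose and 1 fell at 6 weeks (median 0.25), and 8 were lower in fed piglets of 6 than of 4 weeks. Over all genes 63.4% and 41.1% were called with fasting at these ages, and 32.3% were lower in fed piglets of 6 weeks. SLC38A9, the arginine sensor on the lysosome, fell by 1.03 at 4 weeks (edgeR adjusted p = 7.84e-11), from 62.4 ± 10.8 to 30.5 ± 10.2 CPM. CTNS, the cystine carrier, rose by 0.65 with fasting at 6 weeks (adjusted p = 3.21e-05), and its fasting effects differed between ages by 1.64 (adjusted p = 1.2e-11). SLC15A3, a peptide and histidine carrier abundant in macrophages, rose at 4 weeks by 1.92 (adjusted p = 8.67e-13). Macrophage and dendritic cell markers were higher there by 0.99 (permutation test, adjusted p = 3.7e-05), and their part in the SLC15A3 change was not tested.

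Genes known to respond to amino acid shortage through ATF4 gave 6 higher and 3 lower of 10 tested with fasting at 4 weeks (median 0.66), and 3 higher and 7 lower at 6 weeks (median -0.58). Over all genes 33.9% were higher and 29.4% lower at 4 weeks, and 22.7% and 18.4% at 6 weeks. ATF4 itself was not analysed here. ASNS, an enzyme of asparagine synthesis, had 8.74 ± 1.99 CPM in fed and 33.8 ± 20.6 in fasted 4-week piglets, and 39.3 ± 27.1 and 13.4 ± 3.91 in fed and fasted 6-week piglets. It rose by 1.95 at 4 weeks (SE 0.24, edgeR adjusted p = 2.5e-10) and fell by 1.55 at 6 weeks (SE 0.24, adjusted p = 4.37e-07), with 16 of 16 pigs beyond the fed median each time. Not all genes of the list moved that way: TRIB3 and PSAT1 fell at 4 weeks by 1.29 and 2.62 (adjusted p = 4.12e-11 and 3.02e-08), and CHAC1 rose at 6 weeks by 1.27 (adjusted p = 3.71e-04). Of 15 tested genes of amino acid sensing by mTORC1, 2 rose and 7 fell with fasting at 4 weeks, with RRAGB higher by 0.67 and LAMTOR1 changed by -0.59. At 6 weeks 4 rose and 2 fell, with NPRL3 higher by 0.60 (adjusted p = 6.47e-07). Taken over both directions, these counts are near the share over all genes, 63.4% at 4 weeks and 41.1% at 6 weeks. By direction, fewer rose and more fell at 4 weeks than over all genes, where 33.9% were higher and 29.4% lower. In fed piglets of 6 against 4 weeks 2 of the 15 were higher and 10 lower, beside 31.9% and 32.3% of all genes.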

How the data were processed

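RNA was sequenced from 64 mid-jejunum scrapings, 1 per pig. Per the labels' protocols, mucosa was scraped from rinsed intestine, frozen, and sequenced on a BGISEQ-500. The deposited values are raw counts per gene, which the authors made using STAR, HTSeq and the Sscrofa11.1 build (per the submitters' processing notes). Versions, strand setting and annotation release are not given in the sources used here. Groups came from the sample titles. The sources used here name no litter or batch, and none was modelled.

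From these counts, 5 HTSeq summary rows were left out (reads outside genes 4.84 to 8.89%, ambiguous 5.5 to 7.64%, not unique 2.73 to 4.07% of reads). IDs were paired with symbols for 15029 of 31908. filterByExpr kept 14062 of 25772 IDs with a count. Libraries were scaled by TMM (factors 0.758 to 1.383), and all pigs entered 1 quasi-likelihood model in edgeR 4.0.16 (R 4.3.3; limma 3.58.1 and DESeq2 1.42.0 for alternatives), with a common biological coefficient of variation of 0.289. Library depth, 18774144 to 21159989 counts, sets the counting error of each value, and the tests use the spread between pigs. On simulated data for fasted against fed 4-week piglets, 13862 of 14062 genes were left unchanged and 50 were changed at each fold. Of genes changed 1.3-fold, 1.5-fold and 2-fold, 54%, 82% and 98% were called. In the data 63.4% of genes were called in that comparison. The p value needed for a call therefore differs, and these rates need not hold there. Within-pig ratios used CPM plus 1 and permutation tests with 100000 resamples, correlations likewise, each adjusted over 20 tests. Marker levels (mean log2 CPM over a list) were adjusted over 44 tests.

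The members and lists were chosen with earlier results of these data known. Named genes were the 10 members, 10 partner and comparison genes whatever their result, up to 2 called genes per list, comparison and direction with the smallest p, and the 2 genes most like each member. Some genes that this rule named are not reported here. Genes beyond these, and the selection among those the rule gave, were chosen after their values were seen. Alternatives were limma-voom, DESeq2, its size factors, scaling by library size alone, dropping the filter, 2 sets of marker covariates, fits of the compared groups only, and fits without fasted 4-week pigs 1, 28 and 32. Fits without fasted 4-week pig 1 or 16 or fed 6-week pig 46, and the brush border covariate, were added after seeing the data. Positions come from RefSeq on Sscrofa11.1, matched by symbol. There TDRD12 also overlaps SLC7A9, and long non-coding RNA genes overlap SLC3A1, SLC1A1 and SLC36A1. Their part in the counts was not tested.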

Additional observations from a re-analysis of the deposited data

Results flagged for a closer look

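For the genes given here, out of those named in the text, the effect of fasting differed between 4 and 6 weeks of age by edgeR's interaction test (adjusted p under 0.05), which is what singled them out. Over all genes tested the difference was called positive for 27.1% and negative for 26.6%. Values are the log2 fasting change at 6 weeks minus that at 4 weeks. Among the transporters the difference was positive for SLC36A1 (1.64), SLC7A8 (1.59) and SLC6A19 (0.46), and negative for SLC3A1 (-1.57), SLC38A2 (-0.84) and SLC6A20 (-0.65). For the heavy chain SLC3A2 it was 0.84. For SLC7A5, SLC1A5 and SLC6A14 it was -2.69, -1.84 and -2.27, and for ASNS it was -3.50. Among the other carriers it was positive for SLC6A18 (2.65), SLC9A3 (1.70), CTNS (1.64) and SLC38A9 (1.28), and negative for SLC6A9 (-2.44), SLC15A3 (-2.04), SLC38A5 (-2.00), ATP1B1 (-0.82) and SLC6A6 (-0.69).

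Among the peptidases it was 3.47 for NPEPL1, 2.20 for CNDP1 and 0.42 for PEPD. Among genes of amino acid sensing and amino acid shortage it was positive for PSAT1 (1.54), CASTOR2 (0.86), NPRL3 (0.81), LAMTOR1 (0.68) and TRIB3 (0.65), and negative for RRAGB (-0.56). Among enterocyte markers and transcription factors it was positive for FABP2 (1.49), PPARA (0.99) and GATA4 (0.59), and negative for MGAM (-2.53), NR1H4 (-1.72) and KLF5 (-0.35). For SACM1L, a gene that overlaps a transporter, it was 0.40. The fed 4-week group enters all of these differences, and it is also the group of sow-fed pigs.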

How the results depend on the processing

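No paired analysis was possible because pig numbers are unique to a pig and the groups share none. Scaling by library size alone moved the median change of all genes by fasting at 4 weeks from 0.03 to 0.25, the difference between ages to -0.22 and fed 6 against 4 weeks to 0.20. It split the calls into 6960 higher and 2518 lower (4768 and 4141 with TMM), 2213 and 5515 (3817 and 3739), and 6404 and 2719 (4480 and 4548). It called 5 transporters higher at 4 weeks, against 3. With smooth muscle and B cell covariates 1 was higher at 4 weeks and 2 lower at 6 weeks. With the enterocyte covariate 2 were lower at 6 weeks (1 without), 3 higher in fasted 6 against 4 weeks (5 without) and 5 lower in fed 6 against 4 weeks (1 without), where the brush border covariate gave 3. Without the 2 farthest pigs, r turned to -0.137 for SLC7A9 with SLC3A1 in fed 6-week, -0.117 for SLC7A7 with SLC3A2 in fed 4-week and -0.205 for SLC38A2 with ASNS in fed 4-week piglets. The ratio results held under the alternatives run on ratios, which is a narrower set than for the genes. A scaling factor cancels in a ratio within a pig, apart from the value added to each CPM. Other scaling could therefore hardly move a ratio, and its result there says little. The permutation tests of the ratios took no marker covariate, so whether the ratio results hold with one was not tested.

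Transporter changes that turned sign follow, and the cause was not tested. Of these only SLC6A19 in fasted 6 against 4 weeks was called as reported, and after turning SLC7A7 and SLC7A8 in fed 6 against 4 weeks were called with the enterocyte covariate (adjusted p = 0.00518 and 0.00346). With smooth muscle and B cell covariates they were SLC15A1 (-0.285) and SLC38A2 (-0.080) in fasting at 4 weeks, and SLC36A1 (-0.028), SLC3A1 (-0.118) and SLC7A9 (-0.011) in fasting at 6 weeks. With the enterocyte covariate they were SLC15A1 (-0.035) and SLC7A8 (-0.191) at 4 weeks, SLC3A1 (-0.027) at 6 weeks, SLC7A7 (-0.593) and SLC7A8 (-1.169) in fed 6 against 4 weeks, and SLC6A19 (-0.184), SLC7A7 (-0.267) and SLC7A9 (-0.293) in fasted 6 against 4 weeks. With the brush border covariate they were SLC15A1 at 4 weeks (-0.093), at 6 weeks (0.002) and between ages (0.096), SLC1A1 between ages (0.056), SLC7A8 at 4 weeks (-0.173), and SLC7A7 (-0.247) and SLC7A8 (-0.472) in fed 6 against 4 weeks. Library size alone turned SLC7A9 at 4 weeks (0.151), and SLC38A2 (0.10), SLC6A19 (0.073) and SLC7A9 (0.139) in fed 6 against 4 weeks. Without fasted 4-week pigs 1, 28 and 32, SLC15A1 at 4 weeks was -0.065 and SLC3A1 in fasted 6 against 4 weeks 0.016, and without pig 1 SLC7A9 at 4 weeks was 0.056. Without fed 6-week pig 46, SLC3A1 at 6 weeks was -0.031 and SLC7A8 in fed 6 against 4 weeks -0.084. SLC3A1 at 6 weeks was -0.010 with DESeq2 and with its size factors, -0.022 without the filter and with limma-voom, and -0.016 in the groups alone. Limma-voom turned SLC7A8 at 4 weeks (-0.203) and in fed 6 against 4 weeks (-0.066). Carriers under 1 CPM, such as SLC6A14, SLC7A2, SLC7A11 and SLC38A4, and SLC6A18 in fasted piglets, rest on few reads.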

Other observations

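Cytosolic peptidases split absorbed peptides inside the enterocyte, and the list of them used here also holds CNDP1, a secreted carnosinase. Of 10 tested, 3 rose and 4 fell with fasting at 4 weeks, and 3 rose and 2 fell at 6 weeks, near the 63.4% and 41.1% of all genes called. CNDP1 had 78.9 ± 27.6 CPM in fed and 42.4 ± 24.1 in fasted 4-week piglets, and 22.1 ± 13.6 and 54.5 ± 18.2 in fed and fasted 6-week piglets; its fasting effects differed between ages by 2.20 (edgeR adjusted p = 1.93e-07). NPEPL1, an aminopeptidase-like protein, fell by 2.47 with fasting at 4 weeks (adjusted p = 9.16e-11) and changed in fed piglets of 6 against 4 weeks by -3.89 (adjusted p = 3.97e-16). PEPD, the prolidase that frees proline from dipeptides, fell at 4 weeks by 0.61 (adjusted p = 3.89e-05).

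Of 14 tested transcription factors of the enterocyte, 8 rose and 2 fell with fasting at 4 weeks, and 9 rose and 0 fell at 6 weeks. Over all genes 33.9% rose and 29.4% fell at 4 weeks, and 22.7% and 18.4% at 6 weeks. NR1H4, the bile acid receptor, rose at 4 weeks by 1.56 (adjusted p = 1.22e-09), and its fasting effects differed between ages by -1.72 (adjusted p = 6.48e-07). MAF rose at 6 weeks by 0.87 (adjusted p = 3.92e-07), and KLF5 at 4 weeks by 0.69 (adjusted p = 2.37e-12). GATA4 fell at 4 weeks by 0.35 (adjusted p = 0.00175) and PPARA by 0.70 (adjusted p = 1.22e-04).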
